A study of Mus musculus with 9 samples.

Results

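The comparison described here set lung cells that carried a Foxf1 reporter alone (TDonly) against lung cells that carried a type I collagen reporter alone (ColGFP). Its members are the 3 TDonly and 3 ColGFP libraries, 6 of the 9 libraries of the series, and all 19348 gene symbols of the deposited count table, of which 15550 had enough reads to be tested. All samples came from lungs of C57BL/6J mice with the genotype Col1_GFP;Foxf1_tdTomato, so the controls and the compared cells carried the same pair of reporter alleles and differed in the fluorescence by which they were sorted. The remaining 3 libraries were made from cells positive for both reporters (DBL) and entered the fit for the estimate of spread. The sources used here do not give age, sex, the sort gates or how the reporters were built, and the label protocol describes RNA from flash-frozen lungs while the design text describes sorted cells. Nothing in the labels says that the replicates came from separate animals, so each p-value measures the spread between these libraries, which may be technical.

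FOXF1, a DNA-binding protein of the forkhead family, is made in the mesenchyme and the blood vessels of the lung, downstream of hedgehog signals that the epithelium sends to the mesenchyme. Its loss in people causes a failure of alveolar capillary growth. Type I collagen is a product of fibroblasts, so a collagen reporter marks matrix-making stromal cells, whereas endothelial cells form the vessel lining and make little fibrillar collagen.

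Library totals ran from 17820969 to 26147475 counts. The entry for the ribosomal RNA precursor made up 4.07, 5.01 and 5.13% of them in ColGFP replicates 1, 2 and 3. In TDonly it made up 7.90, 3.96 and 2.77%, so TDonly replicate 1 held the largest share. Levels are given as counts per 1000000 (CPM), always in the order replicate 1, 2 and 3. The total behind each CPM value is the library's reads in tested genes multiplied by its TMM scaling factor from edgeR. These factors ran from 0.926 to 1.096. Fold changes are log2 ratios of TDonly over ColGFP from edgeR's quasi-likelihood fit. That fit reports no standard error. The value after the ± sign is an approximate one, the size of the log2 fold change divided by the square root of its F statistic. It is least certain for genes of few reads. A gene passed the test where its Benjamini-Hochberg adjusted p was under 0.05. The core sample numbers in the labels form 2 series: replicate 1 of each population belongs to the first and the other replicates to the second. The replicate 1 libraries stood apart: over genes, the chi-square statistic per degree of freedom was 53.8 to 98.8 between replicate 1 and another replicate of its population, against 5.32 between ColGFP replicates 2 and 3 and 8.30 between TDonly replicates 2 and 3. The core series was a term of the fit, set with the choice of this comparison. Values within the series are given for some of the genes in which they differ. Along the leading principal component, which carried 64.1% of the variance, all 3 TDonly libraries lay opposite to the ColGFP libraries.

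The genes behind the reporters checked the labels. Foxf1 (chr8:121084386-121088154 of GRCm38, listed under its older symbol Foxf1a) was measured at 61.9, 62.5 and 54.5 CPM in the ColGFP libraries and at 279, 231 and 229 CPM in the TDonly libraries, a log2 fold change of 2.04 ± 0.10. Col1a1, a chain of type I collagen at chr11:94936224-94953042, stood at 4939, 9593 and 9181 CPM in ColGFP and at 373, 1493 and 1566 CPM in TDonly, a log2 fold change of -2.92 ± 0.29 (-3.73 in the first series and -2.62 in the second). The companion chain Col1a2 (chr6:4505618-4541543) gave -3.01 ± 0.29. The populations did not overlap for any of these genes, and since the sort used the reporters these differences are no finding. Foxf1 reads were thus present in every ColGFP library and Col1a1 reads in every TDonly library.

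Other cell types were checked by marker lists. Epithelial transcripts were abundant in both populations: the 20 epithelial markers summed to 15900, 7840 and 5310 CPM in ColGFP and to 15600, 19200 and 18400 CPM in TDonly. 17 of 20 passed as higher in TDonly, a count that fell to 6 without ColGFP replicate 2, 9 without ColGFP replicate 3, 8 without TDonly replicate 2 and 7 without TDonly replicate 3. Fitting without the core series as a term gave 11, and testing gave 2 against a log2 fold change of 1. Their median change was 0.09 in the first series and 1.48 in the second series. The epithelial adhesion molecule Epcam, a defining marker, was measured at 11.2, 6.9 and 4.3 CPM in ColGFP and 12.5, 14.9 and 18.7 CPM in TDonly, and Cdh1 (E-cadherin) at 125, 62.7 and 42.9 and 137, 184 and 181 CPM. The calls of Epcam (log2 fold change 1.05) and Cdh1 (1.19) were lost when ColGFP replicate 2 was left out, and that of Epcam also without ColGFP replicate 3 or TDonly replicate 2 or 3, with adjusted p between 0.0526 and 0.0962. Leukocyte markers summed to 2500, 1330 and 1070 CPM in ColGFP and 2060, 2820 and 3160 CPM in TDonly, with 4 of 20 higher and none lower; that count became 13 without ColGFP replicate 1, 2 without TDonly replicate 2, and 0 without ColGFP replicate 2, ColGFP replicate 3 or TDonly replicate 3. The second series alone gave 15, and the fit without the series term 2. Ptprc (CD45) was measured at 39.3, 30.7 and 39.5 and 22.8, 63 and 82.5 CPM and did not pass, with a log2 fold change of 0.32 that became 1.15 and passed without ColGFP replicate 1 (adjusted p = 0.00118) and was -0.11 without ColGFP replicate 2. Red cell and platelet markers stayed at or under 219 CPM in sum, and Schwann cell markers at or under 46.4 CPM. The part of these cells in the results that follow was not tested.

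Of the 15550 genes tested, 7778 (50%) passed: 3752 (24.1%) were higher and 4026 (25.9%) lower in TDonly. In 8726 genes (56.1%) the 3 libraries of 1 population all lay above the 3 of the other. Every count given for a gene group has to be read against these shares. Scaling by library totals in place of TMM factors gave 4835 higher and 3219 lower, moving the share of higher calls from 48.2% to 60.0% and the median log2 fold change of all genes from 0.01 to 0.16. The larger changes were more often downward: 479 genes were at least 8-fold lower against 294 at least 8-fold higher, and 94 were at least 16-fold lower against 47 at least 16-fold higher. Within the second series alone, 8834 of 15616 genes (56.6%) passed.

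**Figure D1:**
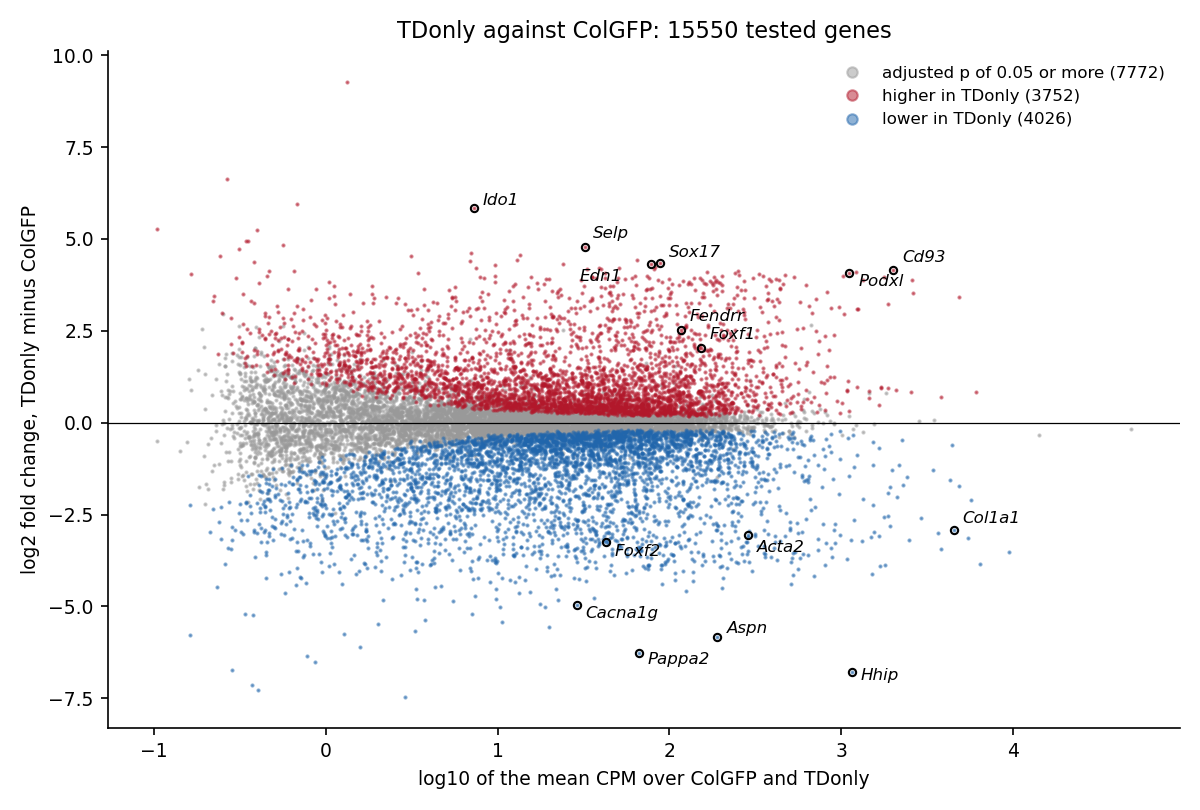
Each point is 1 of the 15550 tested genes, by the log10 of its mean CPM over both populations and its log2 fold change, TDonly minus ColGFP; red marks the 3752 genes that passed as higher, blue the 4026 that passed as lower and grey the rest. Among genes above 10 CPM the upward changes thin out above a log2 value of 4 while the downward ones reach -6.79 (Hhip).

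Endothelial markers were the group with the highest median in TDonly. 19 of 20 passed as higher and none as lower, with a median log2 fold change of 3.76 against 0.01 over all genes. Pecam1 (CD31), a junctional adhesion molecule of endothelium, was measured at 159.6, 111 and 98.8 CPM in ColGFP and 2135, 1749 and 1848 CPM in TDonly, and the gap between the populations was many times the spread within each. Its log2 fold change was 3.98 ± 0.12 (15.8-fold, adjusted p = 2.16e-08). Cdh5 (VE-cadherin) went from 265, 201 and 176 to 3526, 3101 and 3301 CPM, a log2 fold change of 3.97 ± 0.12. The sialomucin Podxl gave 4.07 ± 0.11, the angiopoietin receptor Tek 3.28 ± 0.09, its companion Tie1 3.91 ± 0.11, the VEGF receptor Flt1 3.87 ± 0.10 and the tight-junction claudin Cldn5 3.73 ± 0.17. These changes lay close together, with lower and upper quartiles of 3.62 and 3.97. Summed over the list, the markers stood at 2090, 2020 and 1770 CPM in ColGFP and 22700, 21000 and 21300 CPM in TDonly. The exception, named after its values were seen, was the sialomucin Cd34: 246, 472 and 449 CPM in ColGFP and 669, 484 and 512 CPM in TDonly, adjusted p = 0.0689, with a change of 1.44 in the first series and 0.11 in the second series. In bulk RNA, fewer cells of a type and less RNA per cell cannot be told apart, here and throughout.

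ETS factors are regulators of endothelial genes, and their binding motif was searched for in the RefSeq promoters (GRCm38.p6) of the same list. The letters CAGGAAG occurred on either strand, from 250 bases before to 50 after the start, in 5 of the 13 endothelial markers with a promoter sequence: Emcn, Egfl7, Robo4, Calcrl and Cd34. Among all 27025 genes with a promoter sequence 14.8% had such a match, among genes higher in TDonly 17% and among genes lower 12.7%. It occurred in 3 of the 11 endothelial transcription factors with a promoter sequence and in 0 of 5 general capillary markers. The forkhead motif GTAAACA occurred in 0 of the 13 endothelial markers, against 4.05% of all promoters. The 200 bases before the start are shown for the 4 matched endothelial markers that hold 1 ETS match each. These are 3 that were higher (log2 fold changes of 4.23 for Emcn, 4.11 for Robo4 and 3.88 for Calcrl) and Cd34, which did not pass. Egfl7 (4.0) holds several matches and is not shown. Each sequence reads 5′ to 3′ along the gene's strand, and capitals mark the match.
Robo4 (chr9:37401772-37401971, plus strand): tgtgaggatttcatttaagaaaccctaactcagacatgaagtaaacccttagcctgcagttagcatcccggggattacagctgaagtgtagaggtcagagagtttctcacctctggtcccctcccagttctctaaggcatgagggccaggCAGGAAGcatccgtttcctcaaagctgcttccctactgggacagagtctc
Emcn (chr3:137340878-137341077, plus strand): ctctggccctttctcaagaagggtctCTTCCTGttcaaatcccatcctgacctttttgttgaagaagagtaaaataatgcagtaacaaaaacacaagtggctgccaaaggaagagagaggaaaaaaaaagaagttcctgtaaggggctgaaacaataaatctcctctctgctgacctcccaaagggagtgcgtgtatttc
Calcrl (chr2:84425267-84425466, minus strand): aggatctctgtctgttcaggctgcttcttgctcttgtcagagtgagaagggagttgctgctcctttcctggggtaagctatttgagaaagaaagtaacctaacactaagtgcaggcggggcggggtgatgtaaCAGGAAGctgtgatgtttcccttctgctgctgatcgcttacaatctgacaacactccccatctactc
Cd34 (chr1:194938621-194938820, plus strand): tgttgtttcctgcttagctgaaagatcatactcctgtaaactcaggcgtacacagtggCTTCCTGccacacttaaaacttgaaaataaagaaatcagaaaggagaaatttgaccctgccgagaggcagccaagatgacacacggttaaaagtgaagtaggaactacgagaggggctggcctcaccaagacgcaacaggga
The match begins 50 bases before the start in Robo4, 174 in Emcn, 67 in Calcrl and 142 in Cd34. In Emcn and Cd34 the capitals are the reverse complement of the motif. A match describes the letters and is not evidence of a bound site.

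Most transcription factors of the endothelial list followed the markers: 17 of 20 passed as higher, with a median of 2.73. Sox17, a SOXF factor of arterial endothelium, stood at 8.0, 9.56 and 6.7 CPM in ColGFP and 217, 154 and 134 CPM in TDonly (4.36 ± 0.17), and its relative Sox18 at 8.5, 10.04 and 7.07 and 177, 151 and 136 CPM (4.18 ± 0.15). Neither gene's populations overlapped. The ETS factors Erg (3.39 ± 0.09), Fli1 (2.51 ± 0.17), Ets1 (2.48 ± 0.08) and Elk3 (2.70 ± 0.09) were higher, as was Tal1, a factor of blood and endothelial precursors (3.96 ± 0.14). Nr2f2 (COUP-TFII), known for venous and lymphatic identity and also made by stromal cells, was the 1 member that was lower: 196, 264 and 252 CPM in ColGFP and 39.7, 57.6 and 51.5 CPM in TDonly (-2.26 ± 0.08).

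By vessel segment, the general capillary markers were uniformly higher. 12 of 12 passed, with a median of 3.54. Gpihbp1, which carries lipoprotein lipase to the capillary lumen, stood at 11.9, 10.5 and 6.01 CPM in ColGFP and 142, 137 and 147 CPM in TDonly (3.94 ± 0.20). The receptor Cd93 reached 4323, 3489 and 3572 CPM in TDonly against 280.2, 197 and 167 CPM in ColGFP and had the largest change of the list (4.17 ± 0.12). Aplnr, the apelin receptor (3.94 ± 0.16), Plvap, the protein of fenestral and caveolar diaphragms (3.97 ± 0.14), the stem cell factor receptor Kit (3.33 ± 0.11) and Glp1r (3.76 ± 0.13) lay in the same range. Markers of aerocytes, the capillary cells of the gas exchange surface, were more mixed: 8 of 11 tested were higher and 1 lower, with a median of 1.77. The carbonic anhydrase Car4 (3.51 ± 0.11), apelin (Apln, 3.67 ± 0.16) and periaxin (Prx, 3.32 ± 0.12) were higher. Ednrb, the endothelin B receptor, had a smaller change, from 147, 71.9 and 79.1 to 181, 263 and 244 CPM (1.20 ± 0.30), 0.30 in the first series and 1.75 in the second series, and its adjusted p became 0.0508 without ColGFP replicate 3. Tbx2, a T-box factor also found in lung mesenchyme, was lower (-1.38 ± 0.09).

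Arterial markers included 10 higher and 1 lower of 11, with a median of 3.12. Gja4 (connexin 37) stood at 15.2, 14.8 and 12.4 CPM in ColGFP and 177, 204 and 201 CPM in TDonly (3.78 ± 0.12), the Notch ligand Dll4 at 22.1, 24 and 17.4 and 268, 252 and 258 CPM (3.62 ± 0.12), and ephrin-B2 (Efnb2) changed by 2.13 ± 0.09. Gja5 (connexin 40) ran against the list: 111, 142 and 139.7 CPM in ColGFP and 43.6, 39 and 36.4 CPM in TDonly, with no overlap (-1.73 ± 0.14). Of the venous markers 6 of 8 were higher, among them von Willebrand factor (Vwf), which went from 206, 120.1 and 94 to 2374, 2320.4 and 2150.2 CPM (4.10 ± 0.19), the noradrenaline transporter Slc6a2 (3.79 ± 0.15) and the ephrin-B2 receptor Ephb4 (2.40 ± 0.09). The 2 that were lower were Nr2f2 and the adhesion molecule Vcam1 (-2.23 ± 0.19), a gene that stromal cells also make. The lymphatic list divided, with 5 of 7 tested members higher and 2 lower. Lyve1, the hyaluronan receptor of lymphatic vessels that also marks some macrophages, was among the higher ones (3.75 ± 0.30). The defining factor of lymphatic endothelium, Prox1, was near its floor at 2.55, 4.11 and 3.56 CPM in ColGFP and 7.79, 7.61 and 4.13 CPM in TDonly, and its call (adjusted p = 0.0328) was lost without ColGFP replicate 1 or 3, DBL replicate 3 or TDonly replicate 1 or 2, at 0.0514 to 0.145. Sema3d, a lymphatic marker that is also a guidance ligand, was lower (-3.13 ± 0.24).

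Among junction genes Esam, an endothelial adhesion molecule, stood at 58, 37 and 31.7 CPM in ColGFP and 526, 400.4 and 436 CPM in TDonly (3.46 ± 0.12). Scaffold and catenin genes that many cell types share had smaller log2 fold changes, 1.86 ± 0.08 for Tjp1 (ZO-1), 2.03 ± 0.11 for plakoglobin (Jup) and 1.39 ± 0.08 for p120-catenin (Ctnnd1). In all, 14 of 20 passed as higher and 3 as lower. The leukocyte adhesion list began with the selectins. P-selectin (Selp), which captures rolling leukocytes, stood at 2.64, 1.33 and 2.31 CPM in ColGFP and 108, 43.2 and 35 CPM in TDonly (4.78 ± 0.32), with replicate 1 the highest. E-selectin (Sele), made by activated endothelium, was at 0.581, 1.57 and 0.924 and 44.8, 15.9 and 13.8 CPM (4.44 ± 0.51), a change of 6.25 in the first series and 3.61 in the second series. Icam2, made constitutively by endothelium, changed by 3.82 and 3.88 in the same series. 7 of 12 members were higher and 3 lower, with Vcam1 the lowest.

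Vasoactive genes were divided by side. The vasoconstrictor gene Edn1 (endothelin 1) stood at 7.78, 5.5 and 6.7 CPM in ColGFP and 264, 89.5 and 98.2 CPM in TDonly, with TDonly replicate 1 well above the others (4.32 ± 0.29, 19.9-fold). Its receptor gene Ednra, typical of contractile and stromal cells, was at 424, 348 and 362 CPM in ColGFP and 10.2, 33.7 and 39.9 CPM in TDonly (-3.89 ± 0.38). Neither gene's populations overlapped, so Edn1 and Ednra were high on opposite sides. The other endothelin receptor gene of the list, Ednrb, was higher in TDonly, on the same side as Edn1 (1.20 ± 0.30). Higher in TDonly were also endothelial nitric oxide synthase (Nos3, 4.20 ± 0.19), the angiotensin converting enzyme Ace (3.24 ± 0.12, up to 3878, 3088 and 3183 CPM), the endothelin converting enzyme Ece1 (2.24 ± 0.09) and the natriuretic peptide receptor Npr1 (2.25 ± 0.09). Adrenomedullin (Adm) was lower (-2.90 ± 0.24), while its receptor Calcrl (3.88 ± 0.20) and the receptor partner Ramp2 (3.65 ± 0.11) were higher. In the list as a whole 11 of 20 were higher and 7 lower.

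**Figure D2:**
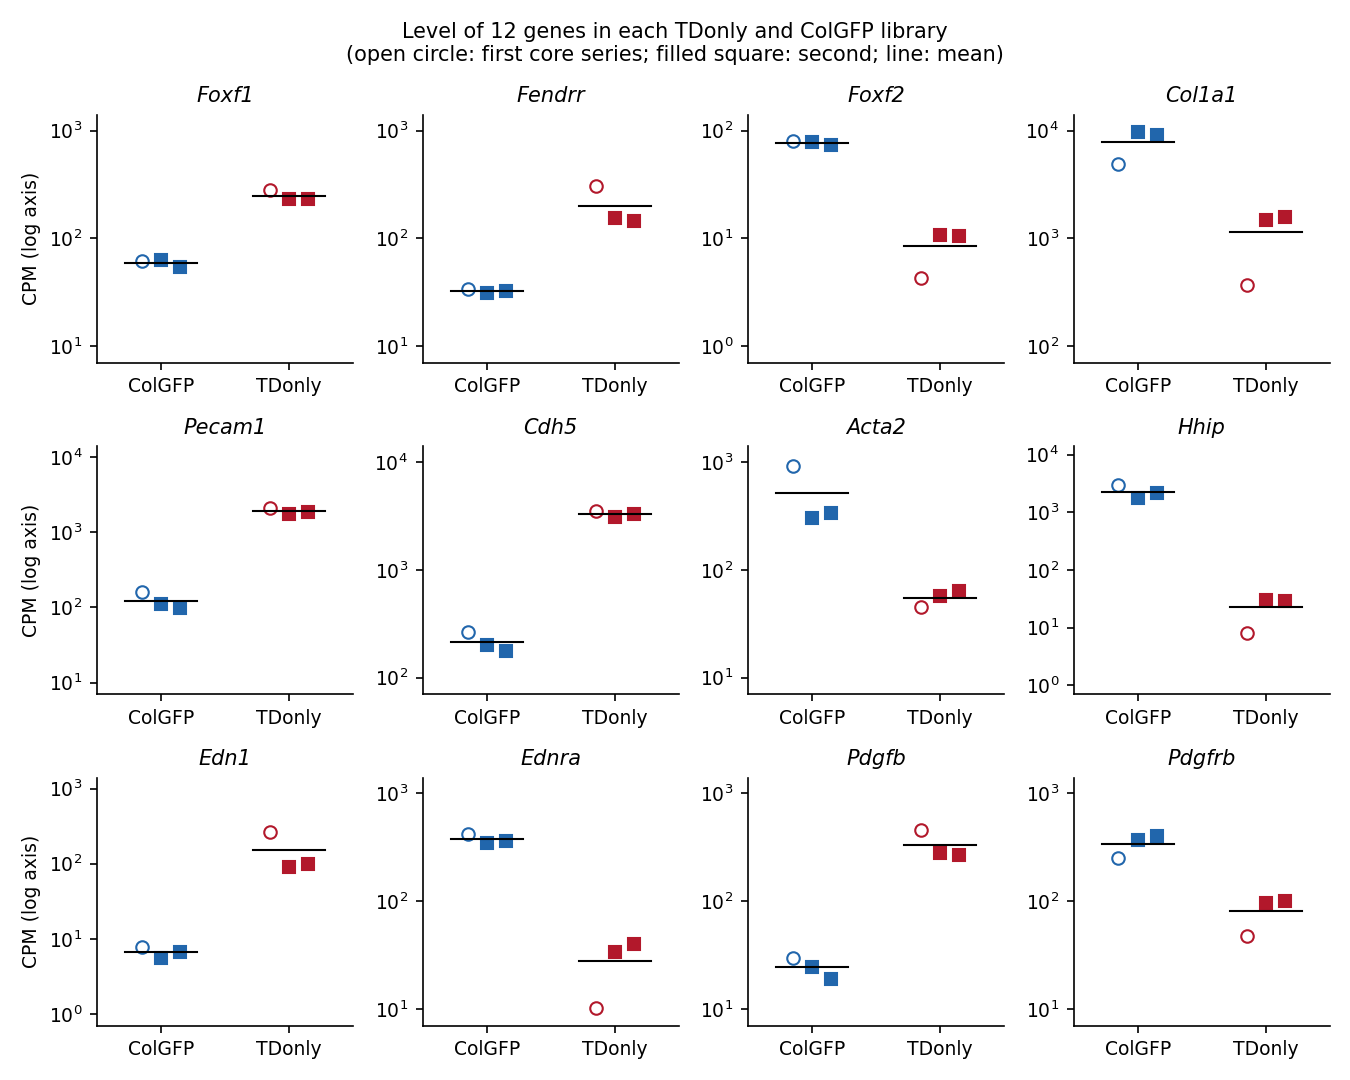
CPM (log axis) of 12 genes in each ColGFP (blue) and TDonly (red) library; open circles are replicate 1 (first core series), filled squares the replicates of the second series and lines the means. No gene's populations overlap: Foxf1, Fendrr, Pecam1, Cdh5, Edn1 and Pdgfb are high in TDonly, and Foxf2, Col1a1, Acta2, Hhip, Ednra and Pdgfrb in ColGFP.

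Directions were also counted over 48 listed ligand and receptor pairs, in which Edn1 was joined to Ednra and not to Ednrb. Both genes passed in 34 pairs: ligand and receptor were both higher in TDonly in 10, both lower in 8, ligand higher with receptor lower in 8, and ligand lower with receptor higher in 8. These counts were nearly even, and of all tested genes 24.1% were higher and 25.9% lower. The pairs named below are examples and not a prevailing arrangement. Apln and its receptor Aplnr, Dll4 and Notch1, and Efnb2 and Ephb4 were higher on both sides. Pdgfb, which recruits mural cells, stood at 29.96, 24.4 and 19.1 CPM in ColGFP and 458, 277 and 267 CPM in TDonly (3.74 ± 0.12), against 249, 367 and 400.4 and 48, 96.5 and 100.1 CPM for its receptor Pdgfrb (-2.09 ± 0.14). In the reverse arrangement Angpt1, the agonist of Tek, stood at 148, 152 and 148 CPM in ColGFP and 8.89, 24.7 and 21.7 CPM in TDonly (-3.11 ± 0.25), and Vegfd, a ligand of Flt4, at 122, 124 and 123 and 7.33, 14.3 and 14.4 CPM (-3.38 ± 0.21). Pgf, a ligand of Flt1, was lower (-1.83 ± 0.18), whereas Vegfa (1.25 ± 0.09) and Vegfc (1.93 ± 0.17) were higher together with the receptors Kdr (3.55 ± 0.12) and Flt4. Ptprb, a phosphatase that acts on Tek, was also higher (3.88 ± 0.15). These calls come from the same fit and describe which population held the higher level. They are not a test of signalling between the cells.

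**Figure D3:**
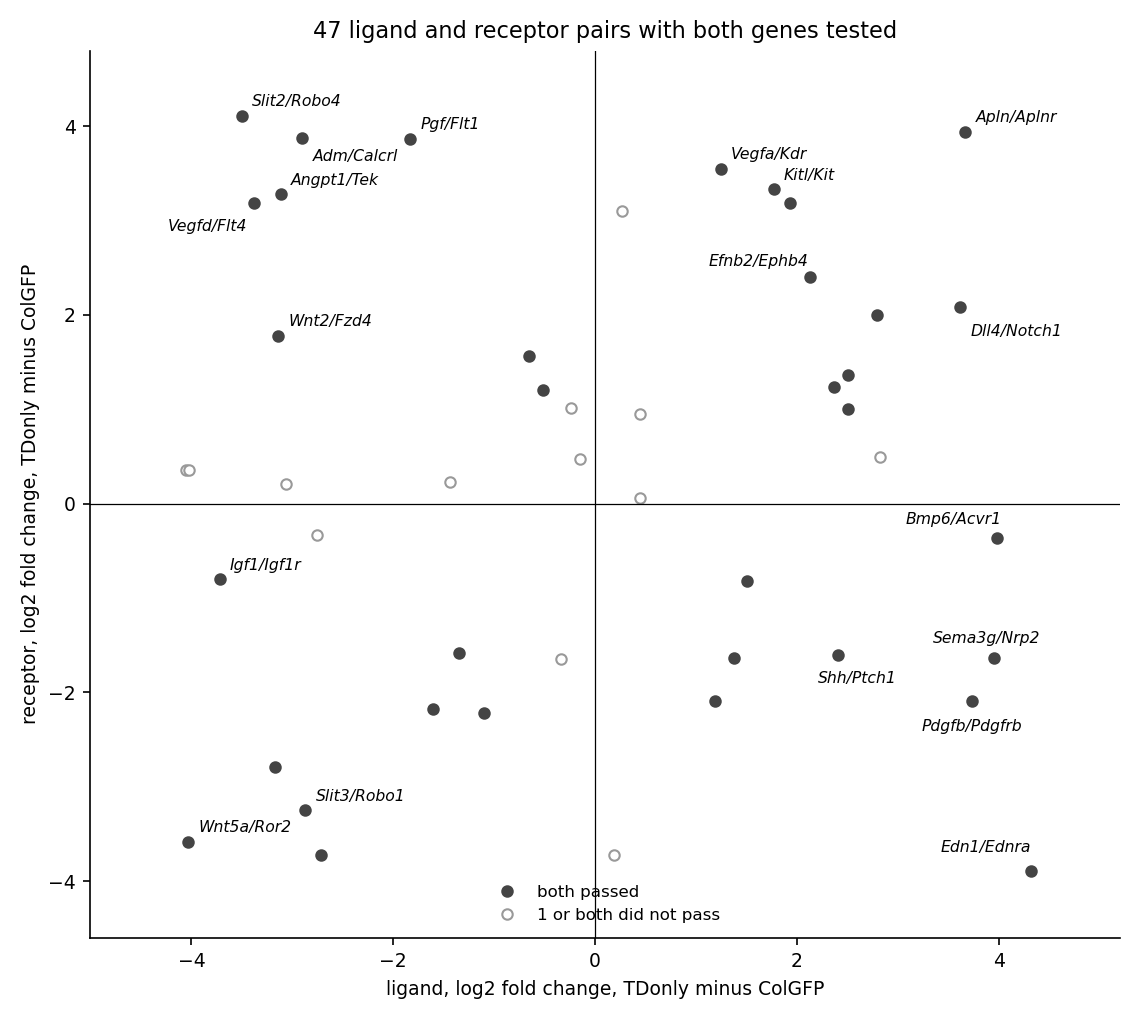
Log2 fold change of the ligand (horizontal) and receptor (vertical), TDonly minus ColGFP, for the 47 pairs with both genes tested; filled points are the 34 pairs in which both passed and open points the rest. Edn1/Ednra and Pdgfb/Pdgfrb lie at the lower right and Angpt1/Tek and Slit2/Robo4 at the upper left.

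Notch receptors differed in direction. Notch4, the endothelial receptor, changed by 3.86 ± 0.14 and Notch1 by 2.08 ± 0.10, whereas Notch3, the receptor of mural cells, was lower (-0.82 ± 0.15). The ligands Dll1 (3.63 ± 0.12) and Jag1 (1.51 ± 0.09) and the glycosyltransferase Lfng, which modifies Notch receptors (3.16 ± 0.09), were higher. 9 of 16 members passed as higher and 6 as lower.

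Fibrillar and other interstitial collagens were lower without exception: 20 of 20 passed, with a median of -2.97. The list includes the sort genes Col1a1 and Col1a2. Col6a1, a chain of the pericellular collagen VI, stood at 2147, 2460.0 and 2554 CPM in ColGFP and 143, 337 and 329 CPM in TDonly (-3.22 ± 0.21), with TDonly replicate 1 the lowest. Col13a1, a transmembrane collagen that marks alveolar fibroblasts, changed by -3.72 ± 0.27, Col5a2 by -2.74 ± 0.13 and Col12a1 by -2.79 ± 0.11. Enzymes and chaperones of collagen maturation were lower in 20 of 23 and higher in 0, with a smaller median (-1.42). The prolyl 4-hydroxylase subunit P4ha3 fell from 42.9, 26.1 and 33.5 CPM in ColGFP to 0.857, 1.24 and 1.19 CPM in TDonly (-4.93 ± 0.26). The procollagen C-proteinase enhancer Pcolce2 (-3.65 ± 0.28), the prolyl 3-hydroxylase P3h3 (-3.07 ± 0.12), the crosslinking enzyme Loxl2 (-2.24 ± 0.14) and the chaperone Fkbp10 (-1.67 ± 0.08) were lower too.

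Small leucine-rich proteoglycans and elastic fibre genes were lower in 22 of 23. Asporin (Aspn) had the largest change, from 577, 250.4 and 280.4 CPM in ColGFP to 2.57, 9.37 and 8.75 CPM in TDonly (-5.83 ± 0.57). Lumican (Lum, -3.75 ± 0.21), biglycan (Bgn, -3.19 ± 0.19), decorin (Dcn, -2.76 ± 0.31), elastin (Eln, -2.60 ± 0.17) and the latent TGF-beta binding protein Ltbp4 (-2.54 ± 0.10) were lower. Decorin also varied within ColGFP, at 669, 2075 and 2047 CPM, with replicate 1 the lowest. Metalloproteinases and their inhibitors were lower in 17 of 19, among them Mmp2 (-3.59 ± 0.21), the membrane-bound Mmp14 (-2.03 ± 0.08) and the inhibitor Timp2 (-1.53 ± 0.09).

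Basement membrane genes divided within gene families, with 6 of 22 higher and 12 lower. The common collagen IV chains Col4a1, at 1772, 1693 and 1698 CPM in ColGFP and 5238, 2418 and 2382 CPM in TDonly (0.84 ± 0.20), and Col4a2 (0.97 ± 0.17) were higher. The chains Col4a5, at 344, 435 and 433 and 38.2, 75 and 68.3 CPM (-2.78 ± 0.13), and Col4a6 (-3.40 ± 0.16) were lower. Each of these gene pairs lies head to head around a shared promoter region, and the members of a pair had the same direction. For Col4a1 the change was 1.56 in the first series and 0.50 in the second series. The laminin chains Lama4 (-2.97 ± 0.09), Lamb1 (-3.02 ± 0.08) and Lamc1 (-1.94 ± 0.10) were lower. Integrin subunits were evenly divided, 7 higher and 7 lower of 18. Itga6, part of laminin receptors, stood at 58.2, 34.9 and 29.2 CPM in ColGFP and 563, 429 and 449 CPM in TDonly (3.61 ± 0.13), its partner Itgb4 changed by 2.69 ± 0.13, and the collagen receptor subunits Itga1 and Itga2 by 2.87 ± 0.09 and 3.12 ± 0.15. Itgb5, a subunit of a vitronectin receptor, was lower (-1.99 ± 0.09).

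Alveolar fibroblast markers gave the lowest median of all lists, -3.31, with 14 of 15 lower and none higher. Tcf21, a transcription factor of lipid-bearing fibroblasts, stood at 120.4, 125 and 128 CPM in ColGFP and 4.79, 15.2 and 15.1 CPM in TDonly (-3.50 ± 0.29). Npnt (nephronectin), a matrix ligand for integrins, was at 1692, 1617 and 1678 and 85.8, 247 and 226 CPM (-3.27 ± 0.28). The amino acid transporter gene Slc7a10 (-3.31 ± 0.27) and the cytoskeletal genes Limch1 (-2.66 ± 0.19) and Macf1 (-2.11 ± 0.11) were lower. TDonly replicate 1 was the lowest library for each of these genes. The list summed to 21300, 21800 and 22900 CPM in ColGFP and 2510, 4200 and 4190 CPM in TDonly, and its median change was -4.43 in the first series and -2.86 in the second series.

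Adventitial fibroblast markers, found around airways and larger vessels, were lower in 11 of 14 and higher in 2. Their sums varied widely inside ColGFP, at 1770, 5120 and 4960 CPM, against 416, 1050 and 1150 CPM in TDonly. The 2 defining markers, Pi16 and Dpp4, went in opposite directions. Pi16 stood at 83.3, 417 and 363 CPM in ColGFP and 16.9, 75.7 and 85.2 CPM in TDonly. It overlapped between populations although its call passed (-2.28 ± 0.41). Dpp4, a peptidase also made by endothelium and epithelium, was higher (2.23 ± 0.21). It stood at 49.1, 43.1 and 27.4 CPM in ColGFP and 155, 205 and 201 CPM in TDonly. The microfibril gene Mfap5 (-3.52 ± 0.34) and Clec3b (tetranectin, -3.00 ± 0.27) were lower.

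Every smooth muscle gene was lower: 17 of 17, with a median of -2.70. Smooth muscle actin (Acta2) stood at 925, 301 and 335 CPM in ColGFP, with replicate 1 the highest, and at 45.6, 56.6 and 63.2 CPM in TDonly (-3.06 ± 0.34). Its change was -4.34 in the first series and -2.41 in the second series. Tagln (transgelin, -2.73 ± 0.13), gamma actin (Actg2, -3.63 ± 0.30), myosin light chain kinase (Mylk, -2.30 ± 0.12), the coactivator Myocd (-3.93 ± 0.27) and the regulatory light chain Myl9 (-2.54 ± 0.23) were lower. Myocardin acts with serum response factor at CArG boxes. The box was searched for only in its strict form, CC and GG around a core of A and T letters. Both strands were searched, in the promoter window used for the ETS motif. Of the 17 smooth muscle genes, 13 had a RefSeq promoter sequence. Among these only Myl9 held a strict match, against 1.81% of all promoters. Boxes with other letters in the core, or outside the window, were not searched for, so the other genes may still hold CArG boxes. The 200 bases before the start of Myl9 are shown with the box in capitals, 161 bases before the start.
Myl9 (chr2:156775264-156775463, plus strand): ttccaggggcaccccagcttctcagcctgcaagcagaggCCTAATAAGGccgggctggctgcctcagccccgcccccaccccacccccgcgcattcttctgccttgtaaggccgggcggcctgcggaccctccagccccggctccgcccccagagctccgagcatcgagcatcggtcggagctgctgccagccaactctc

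Pericyte markers were divided, 9 lower and 4 higher of 14. The pericyte channel genes Kcnj8, at 65.4, 61.6 and 60.7 CPM in ColGFP and 2.07, 3.32 and 4.44 CPM in TDonly (-4.30 ± 0.22), and Abcc9 (-3.64 ± 0.22) were lower, as was the proteoglycan Cspg4 (NG2, -1.76 ± 0.20). Mcam (CD146), shared by endothelium and pericytes, was higher (3.02 ± 0.11). Of 9 mesothelial markers 2 were lower and none higher, counts that became 5 higher without TDonly replicate 1, 4 lower without DBL replicate 1, and 5 higher and 4 lower within the second series. Msln, a defining marker, was at 40.3, 52.6 and 38.8 CPM in ColGFP and 27.4, 102 and 97.6 CPM in TDonly. It did not pass (0.70 ± 0.37), but passed at 1.21 without TDonly replicate 1 (adjusted p = 0.000147). Upk1b was lower (-2.47 ± 0.37).

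Factors of the lung mesenchyme and of hedgehog signalling were lower in 18 of 19, with a median of -2.91. Hhip, which binds and holds back hedgehog ligands, had the largest change among the named genes: 2944, 1747 and 2134 CPM in ColGFP against 7.95, 30.3 and 29.5 CPM in TDonly, 111-fold lower (-6.79 ± 0.50, adjusted p = 3.48e-06). The lowest ColGFP library stood far above the highest TDonly library. The receptor Ptch1 (-1.60 ± 0.08), the transducer Smo (-1.63 ± 0.09), the effectors Gli1 (-2.85 ± 0.23) and Gli3 (-2.35 ± 0.12) and the co-receptor Boc (-3.35 ± 0.14) were lower in TDonly, the population sorted for the reporter of a hedgehog-responsive gene. The homeobox factor Prrx1 was lower (-3.10 ± 0.17). The 1 higher member was Tbx3, at 133, 123 and 131 CPM in ColGFP and 606, 613 and 581 CPM in TDonly (2.22 ± 0.08), in contrast to its close relative Tbx2 (-1.38).

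Forkhead genes moved in both directions, 5 higher and 7 lower of 15. The higher ones include the sort gene Foxf1, whose difference is no finding. Foxf2, the closest relative of Foxf1 (chr13:31625816-31631406), stood at 80.00, 78.2 and 74.1 CPM in ColGFP and 4.29, 10.7 and 10.5 CPM in TDonly (-3.24 ± 0.25, adjusted p = 4.84e-06). The populations did not overlap, and the direction was the opposite of that of Foxf1, with a change of -4.22 in the first series and -2.85 in the second. Fendrr, a long noncoding RNA transcribed away from Foxf1 (chr8:121054882-121083110, listed under a clone name), was at 34, 30.9 and 32.8 CPM in ColGFP and 305, 154 and 143 CPM in TDonly (2.53 ± 0.18), a change of 3.17 in the first series and 2.22 in the second. The sources used here do not say whether counting used the strand, and reads of Foxf1 and of transcripts that overlap it cannot be told apart. Foxp1 (1.63 ± 0.09) and Foxk1 (0.87 ± 0.09) were higher and Foxp4 lower (-1.15 ± 0.09). Hox genes, which record position along the body axis in mesenchyme, were lower in 15 of 15 tested out of 28 listed, with a median of -1.19. Hoxa5, required for lung morphogenesis, stood at 81.2, 93.6 and 93.3 CPM in ColGFP and 33.4, 45.3 and 44.8 CPM in TDonly (-1.13 ± 0.08). The low-level Hoxb6 (-3.04 ± 0.27) changed more.

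**Figure D4:**
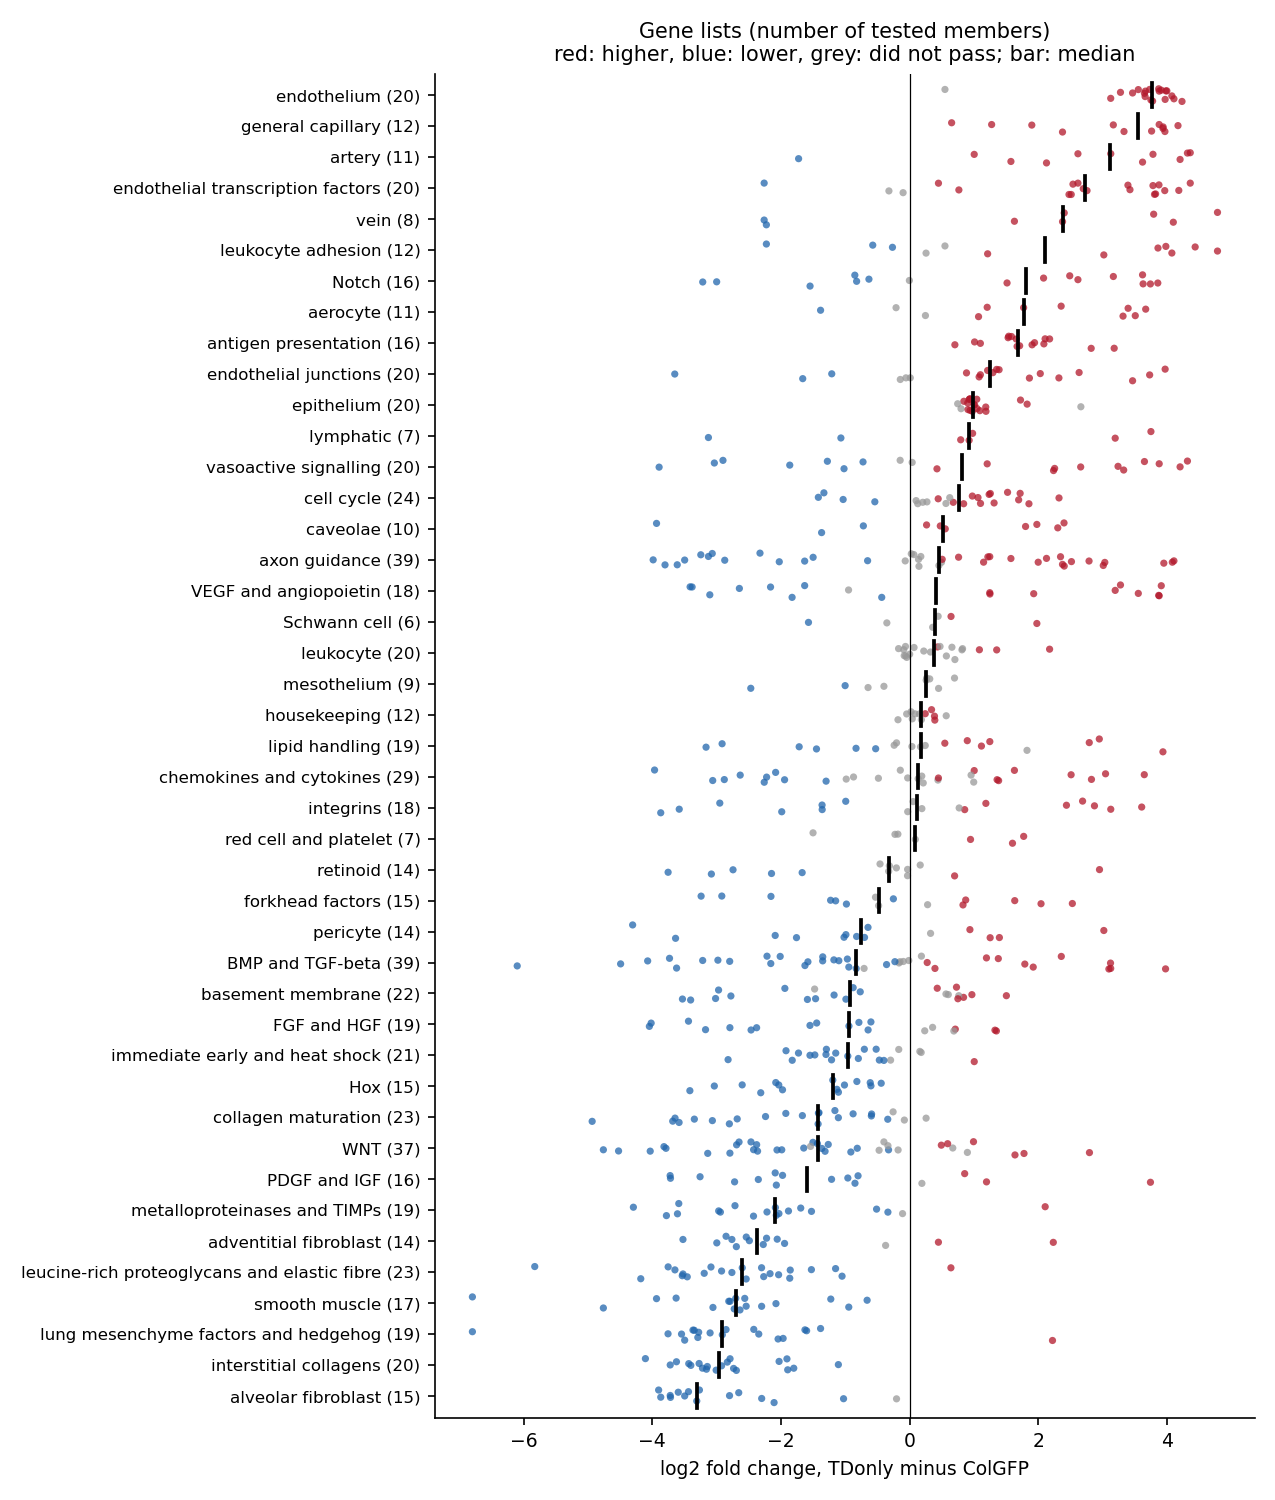
Each point is the log2 fold change (TDonly minus ColGFP) of a tested gene in 1 of 43 lists, ordered by median (bar); red points passed as higher, blue as lower and grey did not pass. Endothelium (3.76) and general capillary (3.54) have the highest medians, and alveolar fibroblast (-3.31) and interstitial collagens (-2.97) the lowest.

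WNT pathway genes were mostly lower, 24 of 37 against 6 higher. Wnt5a, a ligand of non-canonical signalling, stood at 245, 204 and 229 CPM in ColGFP and 5.96, 17.5 and 21.4 CPM in TDonly (-4.03 ± 0.33), and Wnt2, a mesenchymal ligand needed for lung formation, at 73, 49.8 and 49.5 and 2.22, 9.05 and 9.98 CPM (-3.14 ± 0.43). For both the gap was wider in the first series. Axin2, a target and inhibitor of beta-catenin signalling (-1.5 ± 0.09), the ubiquitin ligase Znrf3 (-1.36 ± 0.09) and the receptor Fzd1 (-2.43 ± 0.14) were lower. Higher were the receptors Fzd4, needed for vessel growth (1.78 ± 0.19, or 2.51 and 1.43 in the first and second series), and Fzd6 (2.79 ± 0.15).

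In the BMP and TGF-beta list 11 of 39 were higher and 22 lower. The higher members included the receptors of the endothelial BMP9 branch: Acvrl1 (ALK1), at 271, 265 and 245 CPM in ColGFP and 2126, 2276 and 2275 CPM in TDonly (3.10 ± 0.09), endoglin (Eng, 3.12 ± 0.10) and Bmpr2 (2.36 ± 0.08). The inhibitory Smad6 (3.12 ± 0.09) and the ligand Bmp6 (3.98 ± 0.10) were higher too. Tgfbr2, the TGF-beta receptor, was lower (-1.63 ± 0.12), as was Bmp3 (-3.62 ± 0.22). Of the FGF and HGF genes 13 of 19 were lower and 3 higher, the latter becoming 6 without ColGFP replicate 1 and 5 without TDonly replicate 1. Fgf10, a mesenchymal ligand for the epithelium, stood at 97.5, 122 and 123 CPM in ColGFP and 2.46, 10.4 and 10.6 CPM in TDonly (-4.02 ± 0.30), and its relative Fgf7 changed by -4.05 ± 0.34. Hgf (-1.44 ± 0.11) and the receptor Fgfr1 (-2.79 ± 0.12) were lower and Fgf1 was higher (1.35 ± 0.17). In the PDGF and IGF list 12 of 16 were lower. Pdgfra, the receptor that marks lung fibroblasts, was at 1858, 2047 and 2072 CPM in ColGFP and 60.1, 223 and 219 CPM in TDonly (-3.72 ± 0.34), with TDonly replicate 1 the lowest. Igf1 (-3.72 ± 0.28) and the binding protein Igfbp3 (-3.26 ± 0.26) were lower.

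Guidance genes were found on both sides, with 18 of 39 higher and 13 lower. The semaphorins Sema3g, at 48.2, 34.4 and 30.2 CPM in ColGFP and 554, 597 and 571 CPM in TDonly (3.95 ± 0.15), and Sema6a (3.01 ± 0.08) were higher. The ligands Slit2 (-3.50 ± 0.31) and Slit3 (-2.87 ± 0.18) were lower. Their receptors went in opposite directions: Robo1 was at 115, 115 and 122 CPM in ColGFP and 6.43, 15.5 and 17.1 CPM in TDonly (-3.25 ± 0.23), and the endothelial Robo4 at 22.9, 17.1 and 13.5 and 433, 256 and 244 CPM (4.11 ± 0.12).

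Chemokine and cytokine genes were evenly divided, 9 higher and 9 lower of 29. Cxcl12, a ligand that retains haematopoietic cells, stood at 154, 244 and 224 CPM in ColGFP and 1579, 1015 and 1073 CPM in TDonly (2.51 ± 0.25), a change of 3.36 in the first series and 2.16 in the second. The membrane-bound chemokine Cx3cl1 (2.82 ± 0.10) and the scavenging receptors Ackr2 (3.65 ± 0.11) and Ackr4 (3.04 ± 0.30) were higher. Il6 was lower, at 93.7, 264 and 255 CPM in ColGFP and 10.6, 29.7 and 33.6 CPM in TDonly (-3.06 ± 0.17), and so was the neutrophil chemokine Cxcl1 (-2.63 ± 0.27). In each population replicate 1 had the lowest level of Il6 and of Cxcl1.

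Antigen presentation genes were all higher: 16 of 16, with a median of 1.69. The class I gene H2-K1 stood at 399, 261 and 259 CPM in ColGFP and 1245, 805 and 840.3 CPM in TDonly (1.66 ± 0.09), H2-D1 changed by 1.54 ± 0.09, the class II gene H2-Ab1 by 1.90 ± 0.11 and the invariant chain Cd74 by 1.53 ± 0.10. Reads of near-identical class I copies may be split by the counting, so single class I genes are uncertain. Nlrc5, the activator of class I genes, was at 19.8, 9.68 and 8.27 CPM in ColGFP and 262, 67 and 65.8 CPM in TDonly (3.18 ± 0.22). TDonly replicate 1 held the highest level of all 5 of these genes, and within ColGFP replicate 1 was also the highest. Leukocytes, whose markers are given above, also express class II genes, and their part was not tested.

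Caveolar genes were higher in 7 of 10 and lower in 3. Cav1 (1.98 ± 0.14), Cav2 (2.40 ± 0.27) and Cavin2 (1.8 ± 0.11) of the endothelial caveola were higher, and Cav3, the muscle form, was lower at 3.31, 4.17 and 3.47 CPM in ColGFP and 0.117, 0.24 and 0.352 CPM in TDonly (-3.93 ± 0.44). Lipid handling genes divided, 7 higher and 6 lower of 19: the fatty acid transporter Cd36, at 361, 212 and 150.2 CPM in ColGFP and 1524, 2033 and 1905 CPM in TDonly (2.95 ± 0.31, or 2.08 and 3.45 in the first and second series), and Fabp4 (2.79 ± 0.43) were higher, and autotaxin (Enpp2) was lower (-2.91 ± 0.15). Among retinoid genes the storage enzyme Lrat, at 198, 275 and 292 CPM in ColGFP and 5.38, 32.6 and 29.9 CPM in TDonly (-3.75 ± 0.35) and the synthetic dehydrogenase Aldh1a1 (-2.15 ± 0.34) were lower, while Cyp26b1, which degrades retinoic acid, was higher at 197, 294 and 283 CPM in TDonly against 40.4, 29.5 and 28.4 CPM in ColGFP (2.95 ± 0.21). The list gave 2 higher and 5 lower of 14 tested.

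Immediate early and heat shock genes, which are induced by tissue dissociation as well as by signals in the tissue, were lower in 16 of 21 and higher in 1. Fos stood at 6822, 7397 and 7899 CPM in ColGFP and 1755, 2531 and 2488 CPM in TDonly (-1.73 ± 0.12), Egr1 changed by -1.55 ± 0.10, Btg2 by -1.92 ± 0.15 and Dusp1 by -1.21 ± 0.09. The nuclear receptor Nr4a1 changed most, from 2519, 3659 and 3955 to 326, 568 and 558 CPM (-2.82 ± 0.11). Both populations thus held these transcripts at high levels, and the part of the sort in the difference was not tested. Cell cycle genes were higher in 14 of 24 and lower in 4. Cyclin D1 (Ccnd1), at 50.3, 34.2 and 30.1 CPM in ColGFP and 238, 171 and 159 CPM in TDonly (2.32 ± 0.08), and the replication factor Mcm3 (1.69 ± 0.11) were higher. The proliferation markers Mki67, at 20.2, 16.2 and 15 and 55.5, 26.9 and 32.3 CPM (1.10 ± 0.15), and Top2a (1.52 ± 0.24) were higher at low levels, with TDonly replicate 1 above the others, and the inhibitor Cdkn1c was lower (-1.33 ± 0.15). Of 12 housekeeping genes 4 were higher and none lower, with a median of 0.17. That count was 0 without ColGFP replicate 2, 1 without ColGFP replicate 3 or TDonly replicate 2 or 3, and 2 without DBL replicate 4 or without the series term. Actb, at 3895, 3069 and 3149.7 CPM in ColGFP and 3595, 3501 and 3559.9 CPM in TDonly, did not pass (0.08 ± 0.10).

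The 12 largest downward changes among genes at 10 CPM or more in ColGFP began with Hhip. Others among them were Pappa2, a protease of IGF binding proteins (-6.28), Aspn (-5.83), the potassium channel Kcnma1 (-5.43), the calcium channel genes Cacna2d3 (-5.21) and Cacna1g (-4.96), P4ha3 (-4.93), Hpse2 (-4.85), Ccdc3 (-4.83) and the glutamate receptor Grik4 (-4.8). Cacna1g stood at 52, 53.3 and 63.4 CPM in ColGFP and 0.857, 2.56 and 2.33 CPM in TDonly, and Pappa2 at 185, 91.6 and 119.7 and 0.779, 2.04 and 2.42 CPM. Apart from Hhip and Aspn, each of the genes named here was at or under 2.56 CPM in every TDonly library.

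Among the 12 largest upward changes were endothelial genes already described (Selp, Sele, Sox17, Edn1 and Emcn), the endothelial Grrp1, at 2.5, 2.24 and 1.99 CPM in ColGFP and 61.4, 38.7 and 37.1 CPM in TDonly (4.33 ± 0.15), Ctla2b (4.21), the LIM homeobox factor Lhx6 (4.30) and the lectin receptor Clec12b (4.40). Ido1, a tryptophan-degrading enzyme induced by interferon-gamma, had the largest value, 5.84, which rests on very uneven libraries: 39.6, 1.56 and 1.71 CPM in TDonly against 0.492, 0.181 and 0 CPM in ColGFP. The interferon-induced GTPase Tgtp1 was uneven in the same way, at 59.6, 9.37 and 8.44 CPM in TDonly and 2.33, 0.786 and 0.185 CPM in ColGFP (4.55 ± 0.30), and its reads may be split with a near-identical copy. In both cases replicate 1 was the highest library of each population.

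**Figure D5:**
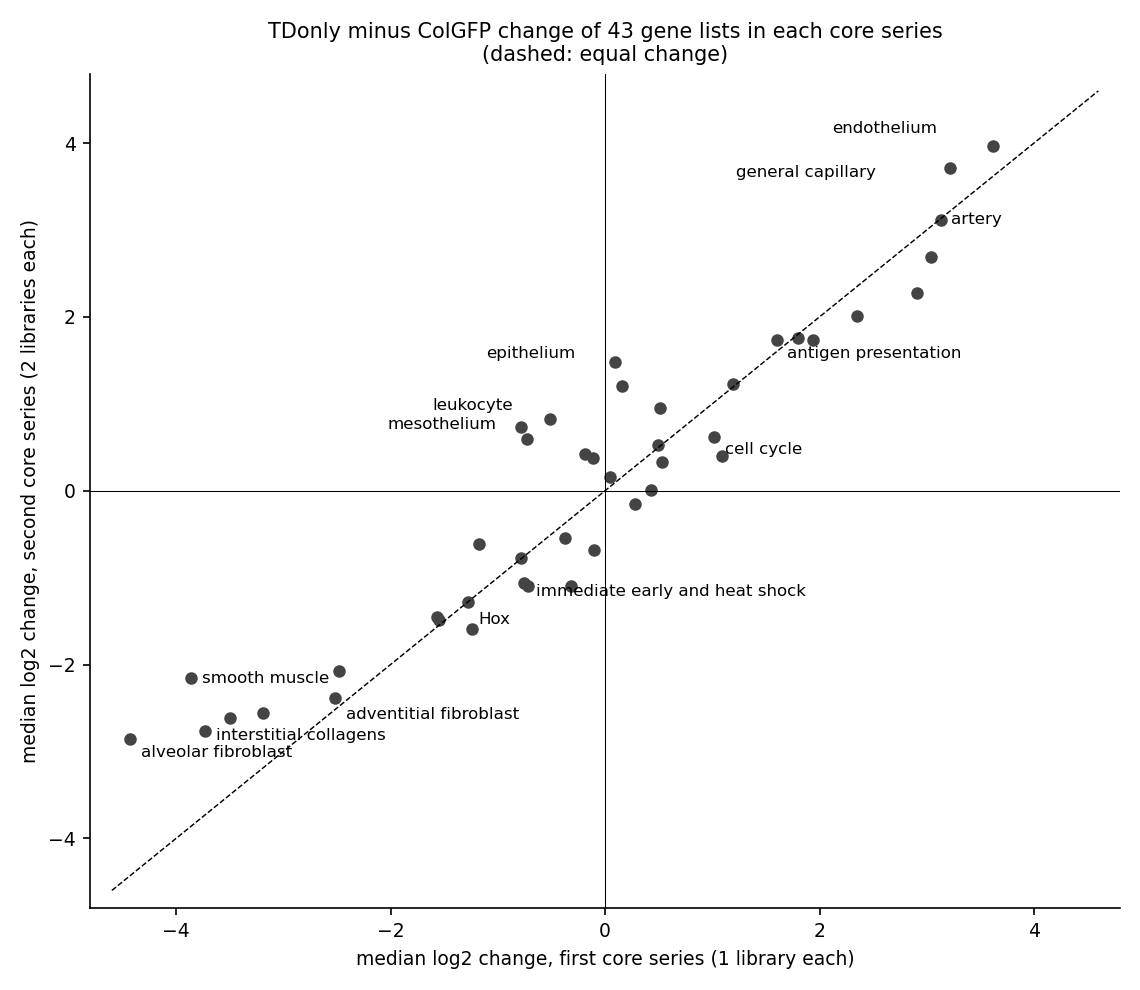
Median log2 change (TDonly minus ColGFP) of the 43 gene lists in the first core series (horizontal, 1 library of each population) and the second (vertical, 2 libraries of each); the dashed line marks equal change. Endothelial lists lie near the line, alveolar fibroblast (-4.43 and -2.86) and smooth muscle (-3.86 and -2.16) above it at the lower left, and epithelium (0.09 and 1.48) above it near 0.

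The change itself differed between the core series for 2605 of 15550 genes (16.8%) by the interaction term of the edgeR fit, and by more than a log2 value of 1 for 306 (1.97%). Among the 216 genes named here, 100 differed between the series. Of the 2605, 1664 were genes that passed the comparison as a whole: 958 changed more in the first series with the same sign, 604 changed more in the second series with the same sign and 102 had opposite signs. For interstitial collagens the median change was -3.73 in the first series and -2.77 in the second series, and for endothelial markers 3.62 and 3.97. The first series has 1 library of each population, so its values have no spread of their own. The interaction test thus took its spread from the second-series replicates alone. A difference between the series cannot be told apart from 1 unusual library in the first.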

How the data were processed

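Mouse lung RNA was depleted of ribosomal RNA and sequenced, per the labels. As stated at the start, the label protocol describes flash-frozen lungs and the design text sorted cells. The submitters' processing notes name cutadapt, TopHat, HTSeq and mm10; the sources used here give no version, annotation or strand setting. The authors deposited whole-number read counts per gene symbol, used as raw counts; 3 columns that match no sample were not used. Symbols were matched to RefSeq: 17208 directly, 1980 through a synonym and 160 not at all.

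Genes were filtered with filterByExpr (minimum count 10), scaled by TMM and fitted with edgeR 4.0.16 (quasi-likelihood test, R 4.3.3; limma 3.58.1 and DESeq2 1.42.0 as alternatives) over 9 libraries with the core series as a term. Benjamini-Hochberg adjustment ran over all 15550 tested genes. Library totals were 17820969 to 26147475; at these, counting error is small next to the spread between libraries for abundant genes but not for genes of few reads, such as Cacna2d3 with 7, 13 and 7 counts in TDonly.

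The 43 lists (786 entries, 781 in the table, 766 tested) and the members were chosen with earlier results of these data known. Named genes were those of the reporters and their locus, the 12 largest changes in each direction (at least 10 CPM in the higher population, passing, no overlap, no unnamed gene models), the first 2 entries and up to 6 smallest adjusted p of each list, and both genes of pairs that passed; Cd34, Egfl7 and Myl9 were added after their values were seen, and some were left out for length or are not reported here. Promoter sequences are RefSeq's on GRCm38.p6, with 12146 of the tested genes matched. A comparison of FOXF1 and FOXF2 proteins was not run.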

Additional observations from a re-analysis of the deposited data

Results flagged for a closer look

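The following 23 of the 216 named genes changed by different amounts in the first and second core series (replicate 1 against the other replicates), beyond a log2 difference of 1 (edgeR interaction term tested against that difference, adjusted p under 0.05; 306 of 15550 genes, 1.97%, passed). This stricter test was chosen after the data were seen; against a difference of 0, 100 of the 216 passed. Values are the log2 change in the second series minus that in the first series, and the first series has 1 library per population. The cause was not tested, and a difference between the series cannot be told apart from 1 unusual library in the first.

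Of the genes lower in TDonly, 17 were less reduced in the second series; they include fibroblast, smooth muscle, mesothelial, retinoid and signalling genes. Their differences were 2.93 for Aspn (-7.81 in the first series and -4.87 in the second series), 2.51 for Hhip (-8.53 and -6.02), 2.65 for Wnt2, 2.31 for Pappa2 and 2.11 for Ednra. They were 2.07 for Upk1b, 2.03 for Aldh1a1, 2.02 for Lrat, 1.93 for Acta2 (-4.34 and -2.41) and 1.88 for Wnt5a. They were 1.77 for Fgf7, 1.76 for Fgf10, 1.73 for Pdgfra, 1.59 for Tcf21, 1.55 for Mfap5, 1.5 for Npnt and 1.42 for Pcolce2.

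Markers of other cell types were also shifted upward in the second series: Ptprc by 1.83 (-0.79 and 1.05), Msln by 1.69 (-0.56 and 1.13) and Cdh1 by 1.67 (0.13 and 1.8). Lyve1 (1.49) and Ednrb (1.45) were further above ColGFP in the second series. Sele was the exception in sign, at -2.65, with the larger change in the first series (6.25 against 3.61).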

How the results depend on the processing

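The number of genes that passed stayed within 1.5 times of 7778 under 22 of 23 alternatives, and no gene that passed took the opposite call in any of them. Testing against a log2 fold change of 1 gave 2649 genes, 1061 higher and 1588 lower, since it asks for a larger change. Under it the second series alone gave 3282, the difference between series 306, and pairs with ligand higher and receptor lower 5. Many list counts fell under it too. Higher genes became 5 in place of 14 for cell cycle, 9 in place of 14 for endothelial junctions and 1 in place of 6 for basement membrane. For leukocyte and housekeeping genes they became 0 in place of 4. Lower genes became 8 in place of 16 for immediate early and heat shock, 6 in place of 15 for Hox and 4 in place of 9 for pericyte genes. Leaving out 1 library gave 6542 to 8341 genes, 2959 to 3979 higher and 3463 to 4362 lower; 5793 genes passed in all 9 of these fits with 1 direction. The sort genes passed under every alternative. With the replicate number as a block (replicate block), 3039 genes were higher and 3444 lower. The counts of higher genes were then 9 for epithelial, 2 for leukocyte and 2 for housekeeping genes. The DBL libraries are numbered 1, 3 and 4. DBL replicate 3 thus shared a block with ColGFP and TDonly replicate 3, and DBL replicate 4 had a block to itself. The replicate numbers were not taken as pairing the libraries, though with 3 libraries per population the correlations of their deviations cannot exclude pairing. Same-numbered TDonly and ColGFP deviations correlated at 0.10, 0.04 and 0.08. Those of different numbers correlated between -0.10 and 0.05, the highest being ColGFP replicate 2 with TDonly replicate 3. With runs of core sample numbers as the term, 3531 genes were higher and 3874 lower. Of the named genes, Ptprc reversed without ColGFP replicate 2 (-0.11; 1.15 without ColGFP replicate 1). Calls lost or gained without 1 library touched Cdh1, Ednrb, Epcam, Msln, Prox1 and Ptprc. Cd34 passed with library totals (adjusted p = 0.0136) and with DESeq2 (0.0283), and Epcam did not pass with the block (0.058). Library totals left 1 leukocyte adhesion gene lower in place of 3. The filter of 10 CPM, which tests fewer genes, left 6 Hox genes lower in place of 15, and 8 cell cycle and 1 pericyte gene higher in place of 14 and 4.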
